A study of Mus musculus with 6 samples.

Results

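Major histocompatibility complex (MHC) class II presentation was followed through 10 of the 22962 genes in the table of normalized read counts. They were taken by name, through their Ensembl identifiers: the classical chains H2-Aa, H2-Ab1 and H2-Eb1, the peptide-exchange chains H2-DMa, H2-DMb1 and H2-DMb2, the modulator chains H2-Oa and H2-Ob, the invariant chain Cd74 and the transactivator Ciita. All 10 were in the table, and all 10 passed the filter on low values. The libraries came from C57BL/6 mice given saline (3 libraries, replicates 1, 2 and 3) or bleomycin, a DNA-breaking drug used to model lung fibrosis (3 libraries, replicates 1, 2 and 5), into the trachea. Alveolar macrophages, the phagocytes of the air spaces, were washed from the lungs 2 weeks later, allowed to attach to plastic and lysed for RNA sequencing. The strain is shared by both groups, the labels name no other allele or agent, and attachment to plastic was the only selection they describe. Whether each library is a separate mouse is not stated, so p-values reflect only the spread among these samples, and some of it may be technical. Library values are listed in the order of replicates 1, 2 and 3 after saline and 1, 2 and 5 after bleomycin, as normalized read counts, and means carry the SD (n = 3). Log2 fold changes (± SE) compare bleomycin with saline on log2(value + 1), which understates changes of low genes, and adjusted p-values are those of limma with Benjamini-Hochberg adjustment over all genes tested.

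Class II molecules show peptides from ingested material to CD4+ T cells. An alpha and a beta chain pair in the endoplasmic reticulum with the invariant chain, which blocks the peptide groove and carries the complex to endosomes. There cathepsins trim the invariant chain down to a small fragment, H2-DM exchanges that fragment for antigenic peptides, and H2-DO restrains H2-DM. Transcription of the classical chains, the invariant chain and H2-DM depends on CIITA, which docks on factors bound to the X and Y boxes of their promoters. Alveolar macrophages of healthy mice are known for modest class II levels compared with dendritic cells and B cells. C57BL/6 mice carry a defective gene for the E alpha chain, so the product of H2-Eb1 does not reach the surface as a classical E molecule in this strain.

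Whole reads recovered from the values numbered 27654799 to 37147983 per library. Markers of the labelled cell type were high in both groups: Siglecf, a surface lectin of resident alveolar macrophages, was 14580.1 ± 1790.0 after saline and 7713 ± 477 after bleomycin. Of 17 resident markers tested, 9 were lower and 2 higher in bleomycin libraries, and of 17 markers of monocyte-derived macrophages 14 were higher and 0 lower. For comparison, 9.76% of all genes tested were higher and 3.9% lower. Bleomycin replicate 1 stood apart from replicates 2 and 5 in the summed markers of several other cell types, given beside the results they move with.

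The promoters of these genes are shown first because class II promoters are known for the elements through which CIITA acts. RefSeq promoter sequences (GRCm38.p6, 250 bases before to 50 bases after the start) were found for 7 of the 10 genes and for the neighbouring class II locus H2-Eb2. H2-Ab1, Cd74 and Ciita had no entry. The windows below run from 145 to 26 bases upstream of the start, 5′ to 3′ on the gene's strand. Capitals mark the Y box core ATTGG and, before it, the letters GNAAC of the X box where they start 28 to 36 bases ahead of ATTGG.
H2-Aa: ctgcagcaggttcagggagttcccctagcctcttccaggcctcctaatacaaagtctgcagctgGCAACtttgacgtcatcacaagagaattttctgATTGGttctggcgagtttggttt
H2-Eb1: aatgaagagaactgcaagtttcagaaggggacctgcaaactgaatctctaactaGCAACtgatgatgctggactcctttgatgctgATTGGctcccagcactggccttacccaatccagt
H2-DMb1: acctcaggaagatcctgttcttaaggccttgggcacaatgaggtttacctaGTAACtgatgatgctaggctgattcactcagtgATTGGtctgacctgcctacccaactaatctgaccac
H2-DMb2: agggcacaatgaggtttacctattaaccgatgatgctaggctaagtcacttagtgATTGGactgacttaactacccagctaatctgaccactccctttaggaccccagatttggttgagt
H2-Oa: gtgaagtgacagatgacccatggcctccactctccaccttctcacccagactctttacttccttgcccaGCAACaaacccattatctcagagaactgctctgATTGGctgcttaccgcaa
H2-Ob: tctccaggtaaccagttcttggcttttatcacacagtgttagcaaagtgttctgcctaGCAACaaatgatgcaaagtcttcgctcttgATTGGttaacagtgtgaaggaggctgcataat
H2-Eb2: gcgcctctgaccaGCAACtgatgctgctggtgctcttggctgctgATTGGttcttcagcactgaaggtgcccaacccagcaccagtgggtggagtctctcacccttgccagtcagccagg
On chromosome 17 these windows lie at chr17:34287849-34287968 (minus strand) for H2-Aa and, on the plus strand, at chr17:34305722-34305841 for H2-Eb1, chr17:34153046-34153165 for H2-DMb1 and chr17:34145104-34145223 for H2-DMb2. Those of H2-Oa, H2-Ob and H2-Eb2 lie at chr17:34092234-34092353, chr17:34238760-34238879 and chr17:34325530-34325649, also on the plus strand.

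Searched on the gene's strand only, the pair of GNAAC and ATTGG was present in 5 of the 7 promoters with an entry (H2-Aa, H2-Eb1, H2-DMb1, H2-Oa and H2-Ob) and in H2-Eb2. Of all 32851 promoters of that length 1.55% held the pair on either strand, a wider search than that of the class II promoters. ATTGG, with or without GNAAC, was on either strand of 37.4%. The letters and the spacing were chosen after these sequences were seen, so the counts are a description. The distance from GNAAC to ATTGG was 30 to 33 bases in these 6 promoters. H2-DMb2 had ATTGG without the pair, and neither of the 2 entries of H2-DMa held the pair. This says only that it is not on the gene's strand in these sequences, as the other strand was not searched. H2-DMb1 and H2-DMb2 are neighbouring copies: over the 50 bases that end with ATTGG they differed at 5 positions, G13T, T18C, G33A, T35G and C41T (H2-DMb1 first, counted from 1 at the 5′ end). The first of these, G13T, is the G of GNAAC.

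Over the 10 class II genes, 4 rose (H2-Aa, H2-Ab1, H2-Eb1 and H2-Ob), 1 fell (H2-DMa) and 5 did not pass. Of the 4, H2-Ob needed its bleomycin libraries to pass the filter on low values. Over all genes tested 9.76% rose and 3.9% fell, 13.7% in all. The median log2 difference of the 10 was 0.66. In 6 of them every bleomycin library was above every saline library and in 1 every bleomycin library was below, where 17.2% and 13.6% of all genes tested were separated in these directions. Saline replicate 3 was the lowest of all 6 libraries for 8 of the 10 genes, the exceptions being H2-DMa and H2-DMb2. DESeq2, which called 17.1% of genes, called 5 of the 10 higher and 1 lower, and edgeR, which called 13.5%, called 4 higher and 0 lower.

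The classical chains rose. H2-Aa (ENSMUSG00000036594, chromosome 17, 34282744 to 34287823), the A alpha chain, had values of 12548, 10979.9 and 7732 after saline and 19276, 20134 and 23760.2 after bleomycin. All 3 bleomycin libraries lay above all 3 saline libraries, and H2-Aa was 2.05-fold higher (log2 1.04 ± 0.18, adjusted p = 0.00678). In these bulk libraries a change in how many cells of a type were present and a change in RNA per cell cannot be told apart. H2-Ab1 (ENSMUSG00000073421, chromosome 17, 34257689 to 34269419), its beta partner, had 14619, 14982 and 8867 after saline and 24455, 23315 and 29479 after bleomycin. The groups did not overlap, saline replicate 3 was the lowest of its group, and the rise was 2.05-fold (log2 1.04 ± 0.21, adjusted p = 0.012). H2-Eb1 (ENSMUSG00000060586, chromosome 17, 34305867 to 34316674), the E beta chain, had 6734, 5846 and 4445 after saline and 14647, 17323 and 20255 after bleomycin. Its rise was 3.08-fold (log2 1.63 ± 0.18, adjusted p = 0.000766), again with no overlap. Without bleomycin replicate 5 the H2-Ab1 rise did not pass (adjusted p = 0.0643), whereas H2-Aa and H2-Eb1 passed without any 1 library.

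**Figure D1:**
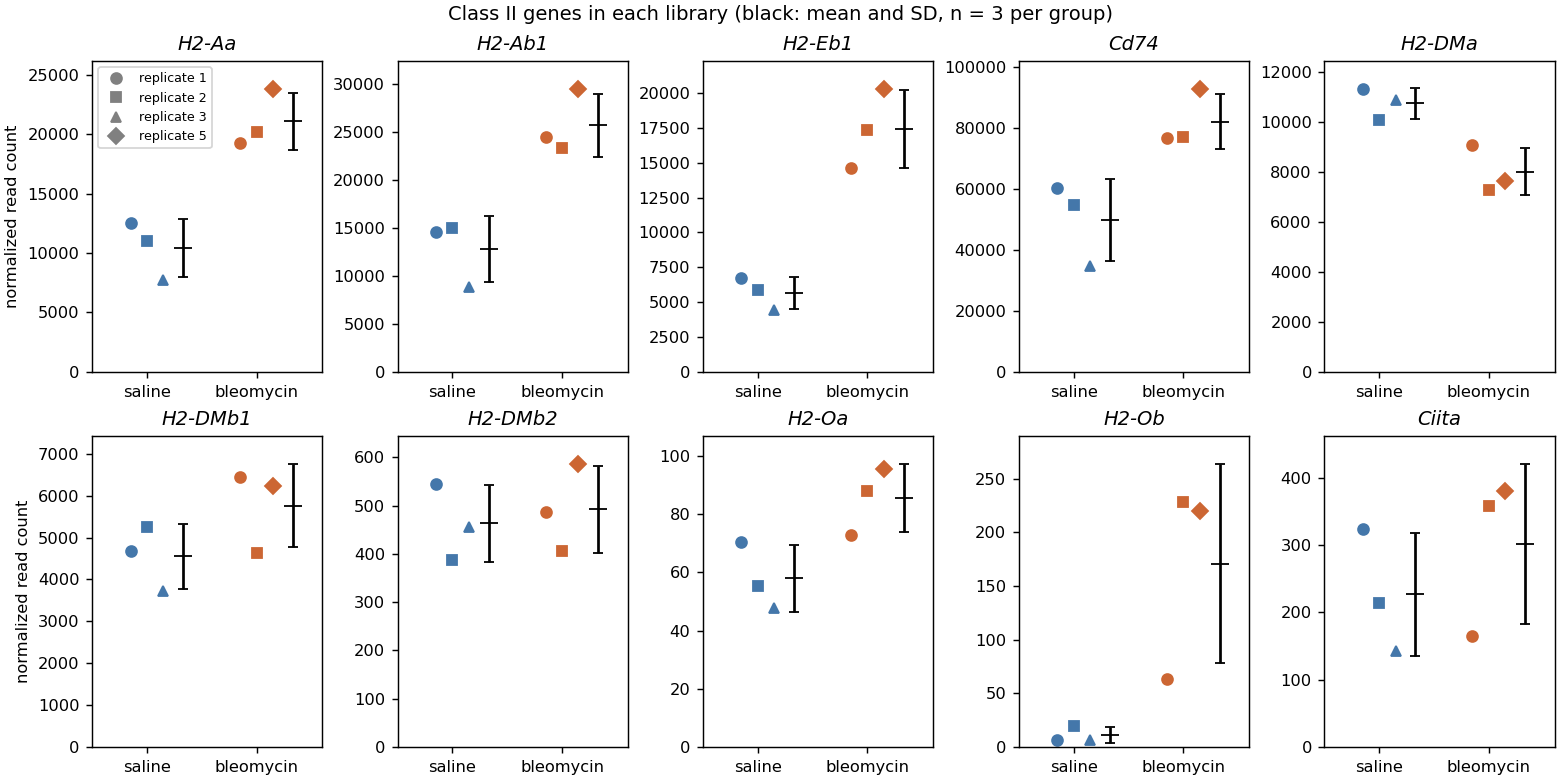
Normalized read counts of the 10 class II genes in each library, saline in blue and bleomycin in orange, with the symbol shape for the replicate and the mean and SD (n = 3) in black; each panel has its own axis from 0. H2-Aa, H2-Ab1, H2-Eb1, H2-Ob, H2-Oa and Cd74 are separated upwards, H2-DMa is separated downwards, and H2-DMb1, H2-DMb2 and Ciita overlap.

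Markers of other class II-bearing cells moved in the same libraries, and their part in these rises was not tested. Of 14 dendritic cell markers tested, 10 were higher and 0 lower, where 9.76% and 3.9% of all genes tested were. Among the 10, Kmo was under 10 in every saline library, and Flt3, Cd209a and Dpp4 reached 10 in only some. These needed bleomycin libraries to pass the filter. The summed values of the 14 were 3199.6, 2159 and 2663 after saline and 4812, 6817 and 7333 after bleomycin. Most of the saline sums came from Ccl22, Ccl17, Tbc1d4 and Clec9a, at 817, 736, 714 and 461 in saline replicate 1. No marker was left out of this sum for a high saline value. Flt3, the receptor tyrosine kinase of dendritic cells and their precursors, had 15.7, 7.61 and 23.3 after saline and 146, 286 and 342 after bleomycin, and Xcr1, a chemokine receptor of cross-presenting dendritic cells, had 18.6, 23.9 and 30.8 after saline and 72.8, 215 and 222 after bleomycin. Of the 4 tested markers that did not pass, Batf3 had 169, 284 and 111 after saline and 106, 108 and 101 after bleomycin. Every bleomycin library was below every saline library (log2 -0.73 ± 0.32, adjusted p = 0.191). Clec9a, Zbtb46 and Ccl17 had log2 0.74, 0.85 and 0.53 (adjusted p = 0.338, 0.123 and 0.585). No dendritic cell marker was at 3 reads or fewer in every saline library. Of 17 markers of monocyte-derived macrophages the summed values were 23758, 30068 and 26163 after saline and 173718, 286252 and 312045 after bleomycin, with none at 3 reads or fewer in every saline library. Alveolar type 2 cells, epithelial cells that also carry class II molecules, had 7 of 10 tested markers higher and 1 lower. Of the 7, only Sftpc (46.1, 36.9 and 41.4 after saline) reached 10 in every saline library. The others needed bleomycin libraries to pass the filter, so the count of 7 is partly set by it. The sum of 8 of their markers, leaving out Abca3, Epcam and Cdh1 after their high saline values were seen, was 98.1, 69.5 and 110.3 after saline and 573, 1086 and 1458 after bleomycin, and over all 11 it was 8668, 8012 and 6782 after saline and 5517, 5842 and 6037 after bleomycin. Bleomycin replicate 1 had the lowest dendritic cell sum and the lowest 8-marker epithelial sum of its group. H2-Aa and H2-Eb1 were also lowest of the group there and highest in replicate 5, as both sums were, while H2-Ab1 was lowest in replicate 2.

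Cd74, the invariant chain and the most abundant of the 10, just missed the threshold. Cd74 (ENSMUSG00000024610, chromosome 18, 60803848 to 60812652) had 60261, 54712 and 34616 after saline and 76826, 77009 and 92767 after bleomycin. Every bleomycin library was above every saline library, and saline replicate 3 was the lowest of the 6. The difference was log2 0.76 ± 0.21, adjusted p = 0.0501, or 1.69-fold on average. The call turned on the setting, and Cd74 passed in 5 of 17 alternatives. These were DESeq2 (adjusted p = 0.00647), rescaling by trimmed mean of M-values (TMM, adjusted p = 0.0429) and leaving out saline replicate 1 (adjusted p = 0.0347). The others were robust variances (adjusted p = 0.0454) and a pseudocount of 5 (adjusted p = 0.0494). Adjusted p ranged from 0.00647 to 0.597 over the 17.

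Of the H2-DM chains H2-DMa fell, and neither H2-DMb copy passed. H2-DMa (ENSMUSG00000037649, chromosome 17, 34119541 to 34139101), the alpha chain of the peptide-exchange factor, had 11298, 10070.5 and 10857 after saline and 9074, 7284 and 7646 after bleomycin. Each bleomycin library was below each saline library, and H2-DMa fell 1.35-fold (log2 -0.43 ± 0.12, adjusted p = 0.0473). That call is fragile: it was lost in 13 of 17 alternatives (adjusted p = 0.0163 to 0.594 over all 17), among them edgeR (adjusted p = 0.056). Leaving out any 1 library other than bleomycin replicate 1 also ended it (adjusted p = 0.0688 to 0.242), while its direction held in all 17. Brd2, a chromatin reader on the opposite strand, shares 360 exon bases with H2-DMa, 10.4% of its exon length, and had 13767, 12552 and 13479 after saline and 10917, 13033 and 13046 after bleomycin (log2 -0.11 ± 0.12, adjusted p = 0.635). The sources used here do not give the strand setting of the counting, so reads of such overlapping genes could not be told apart.

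The H2-DM beta chains come from neighbouring copies. H2-DMb1 (ENSMUSG00000079547, chromosome 17, 34153072 to 34160230), the main copy by level, had 4679, 5259.6 and 3714 after saline and 6436, 4638 and 6220.0 after bleomycin. Bleomycin replicate 2 fell inside the saline range, and the difference did not pass (log2 0.34 ± 0.17, adjusted p = 0.263). H2-DMb2 (ENSMUSG00000037548, chromosome 17, 34143307 to 34151555) had 545, 388 and 456 after saline and 486, 405 and 585 after bleomycin, with both groups mixed (log2 0.09 ± 0.19, adjusted p = 0.836). Its sign turned without saline replicate 2 (log2 -0.03) and without bleomycin replicate 5 (log2 -0.05). Of the 50-base stretches in H2-DMb1 transcripts 22.7% also occur in H2-DMb2, and 21.2% of those of H2-DMb2 occur in H2-DMb1, so the split of reads between the copies is uncertain. Of the other 8 genes only H2-Aa shared any such stretch with another gene, 0.488%.

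The H2-DO chains, which restrain H2-DM and are best known from B cells and some dendritic cells, were low, and of them H2-Ob passed and H2-Oa did not; the difference between them was not tested across all genes. H2-Oa (ENSMUSG00000024334, chromosome 17, 34092340 to 34095234), the alpha chain, had 70.6, 55.4 and 47.7 after saline and 72.8, 87.9 and 95.7 after bleomycin. The groups did not overlap but lay close together, and H2-Oa did not pass (log2 0.56 ± 0.26, adjusted p = 0.21). H2-Ob (ENSMUSG00000041538, chromosome 17, 34238903 to 34254414), the beta chain, had 6.86, 19.6 and 6.36 after saline and 63.8, 229 and 219.8 after bleomycin. It rose 14-fold (log2 3.81 ± 0.59, adjusted p = 0.00357), from 31 reads over the saline group to 534 over the bleomycin group. Bleomycin replicate 1 held less than replicates 2 and 5 and was still above every saline library. H2-Ob passed in all 17 alternatives (adjusted p = 1.99e-10 to 0.0234), with a rise of log2 4.41 without bleomycin replicate 1. Of the saline libraries only replicate 2 reached 10, so H2-Ob needed its bleomycin libraries to pass the filter. H2-Oa shares 22.8% of its exon bases with the antisense gene BC051537, which was near 0, with 0, 9.78 and 0 after saline and 0, 0 and 0.862 after bleomycin.

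B cell markers, like H2-Ob, were lower in bleomycin replicate 1 than in replicates 2 and 5. That pattern was not particular to B cells. The summed markers of dendritic cells, T cells (without Cd2) and monocyte-derived macrophages and the 8-marker epithelial sum were also lower there. Of the 13 B cell markers 4 were tested and 3 of these were higher, beside 9.76% of all genes tested. Among the 3, Cd79a and Ighm needed bleomycin libraries to pass the filter. Cd22 was high in every library (5192, 5103 and 4499 after saline and 5145, 5662 and 5897 after bleomycin). With Cd22 left out after its values were seen, the other 12 summed to 43.1, 35.9 and 44.5 after saline and 150.0, 1444 and 1015 after bleomycin; with it the sum was 5235, 5139 and 4543 after saline and 5295, 7106 and 6912 after bleomycin. The B cell factor Pax5 had 0, 0 and 0 after saline and 0.898, 42.9 and 34.5 after bleomycin. It was at 0 in saline libraries, as were Blk and Ebf1, and 7 of the 13 were at 3 reads or fewer in each saline library. Bleomycin replicate 1 held 63.8 for H2-Ob and 150.0 for the 12-marker B cell sum, both above every saline library. The part of B cells, or of any of these other cells, in the H2-Ob rise was not tested.

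**Figure D2:**
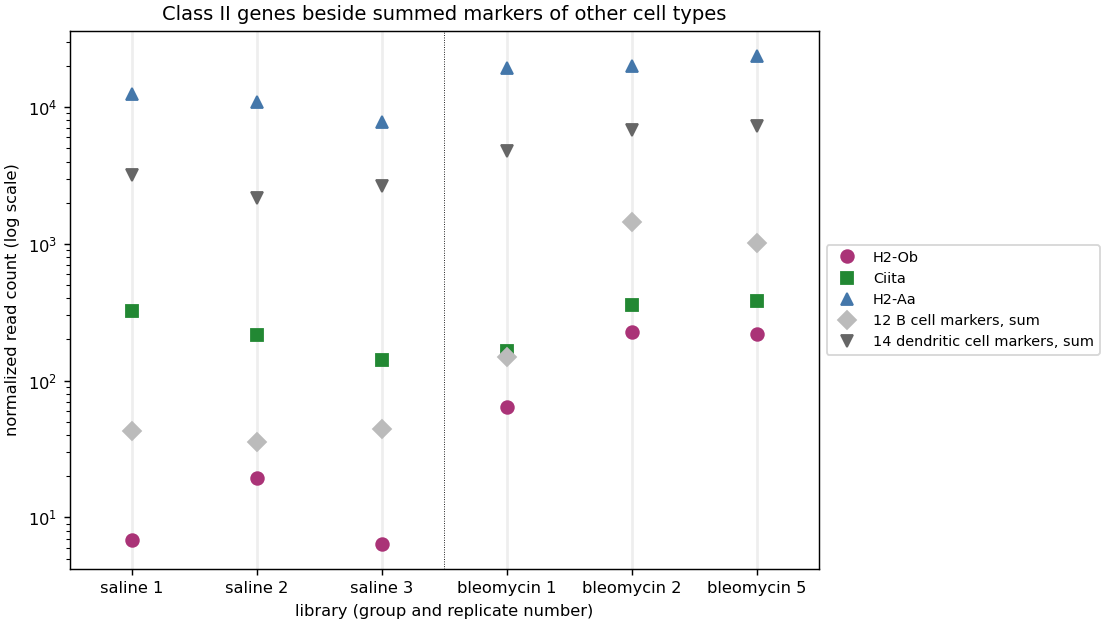
H2-Ob, Ciita and H2-Aa beside the summed markers of B cells (12, without Cd22) and dendritic cells (14) in each of the 6 libraries, as normalized read counts on a log axis; 1 point is 1 library. H2-Ob, Ciita and the B cell sum are lower in bleomycin replicate 1 than in replicates 2 and 5, and so, by a smaller factor, are H2-Aa and the dendritic cell sum.

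Ciita, the transactivator on which class II transcription depends, did not pass the test. Ciita (ENSMUSG00000022504, chromosome 16, 10480059 to 10528418) had 325, 214 and 142 after saline and 164, 358 and 381 after bleomycin. The groups overlapped widely: bleomycin replicate 1 lay below saline replicates 1 and 2, and saline replicate 1 lay near bleomycin replicates 2 and 5. The difference was log2 0.39 ± 0.38, adjusted p = 0.601. Within each group the libraries ranked alike for Ciita and H2-Aa, from replicate 3 (lowest) through 2 to 1 after saline and from replicate 1 (lowest) through 2 to 5 after bleomycin. H2-Ab1, the partner of H2-Aa, followed that order in neither group. The table gives 1 value per gene, so the promoter variants of Ciita used by different cell types are pooled in it. Dexi, on the opposite strand, shares 3.45% of the Ciita exon bases and had 398, 431 and 476 after saline and 524, 459 and 372 after bleomycin.

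No member of the wider list of class II transcription genes (factors, cofactors and regulators) passed. Of 14 tested, limma called 0 in either direction, with 2 at an unadjusted p under 0.05, and edgeR and DESeq2 also called 0. Of all genes tested limma called 13.7%. The median log2 difference of the list was -0.03, against -0.01 over all 13512 genes tested. Rfx5, a subunit of the factor that binds the X box, had 314 ± 34.2 after saline and 252 ± 24.7 after bleomycin (log2 -0.32 ± 0.16, adjusted p = 0.283), and its partner Rfxap had 396 ± 59.6 after saline and 504 ± 54.8 after bleomycin (log2 0.35 ± 0.16, adjusted p = 0.226). The acetyltransferase Kat2b, with 686 ± 69.6 after saline and 899 ± 109 after bleomycin, had the smallest p of the list (log2 0.39 ± 0.15, adjusted p = 0.13). Spi1, which encodes the myeloid factor PU.1, had 21693 ± 1577 after saline and 17479 ± 1597 after bleomycin (log2 -0.31 ± 0.12, adjusted p = 0.135).

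Interferon gamma is the classical inducer of Ciita, and 3 of 16 genes of its signalling and response rose and 0 fell (median log2 0.31). For all genes tested the shares were 9.76% and 3.9% (median log2 -0.01). Ifngr2, a chain of its receptor, was 1.66-fold higher (3119 ± 58.8 after saline and 5190.4 ± 205 after bleomycin, log2 0.73 ± 0.10, adjusted p = 0.0017). Irf1, a transcription factor that acts at the inducible Ciita promoter, had 1439, 985 and 2057 after saline and 3010.2, 3053 and 3268 after bleomycin and rose 2.17-fold (log2 1.12 ± 0.23, adjusted p = 0.0142). It did not pass without bleomycin replicate 2 (adjusted p = 0.0565) or 5 (adjusted p = 0.066). The guanylate-binding protein Gbp3 rose 2.3-fold (log2 1.20 ± 0.21, adjusted p = 0.00644). The chemokine Cxcl9, named here after its values were seen, had 94.4 ± 25.9 after saline and 162 ± 33.9 after bleomycin (log2 0.78 ± 0.26, adjusted p = 0.0893).

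Levels were compared between genes per kb of exon sequence (normalized count divided by the length of all annotated exons, GENCODE M21). In saline libraries Cd74 stood far above the rest at 29698 ± 8036 per kb. H2-Ab1 followed at 4993 ± 1336, then a group whose spreads overlap: H2-DMa at 3115 ± 180.4, H2-Eb1 at 2919 ± 594, H2-Aa at 2744 ± 647 and H2-DMb1 at 2707 ± 464. H2-DMb2 was lower at 265 ± 45.2, and the lowest were H2-Oa at 41.2 ± 8.27, Ciita at 23.8 ± 9.64 and H2-Ob at 2.03 ± 1.39. In bleomycin libraries the order changed within the middle group. Cd74 was at 48958 ± 5450.3 per kb, H2-Ab1 at 10027 ± 1277, H2-Eb1 at 8955 ± 1443 and H2-Aa at 5544 ± 627, above H2-DMb1 at 3429 ± 584 and H2-DMa at 2320.5 ± 274. H2-Ab1 and H2-Eb1 overlapped in spread, as did H2-Ob at 31.7 ± 17.2 and Ciita at 31.6 ± 12.5. The order of the middle group depends on the length used: per kb of the longest coding transcript, H2-Aa was at 9238 and H2-DMa at 5358 in saline libraries, so that H2-Aa then ranked above H2-DMa. By that length, bleomycin libraries had H2-Ab1 at 21246, H2-Aa at 18668 and H2-Eb1 at 10430, so that H2-Eb1 then ranked below H2-Aa.

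Ratios within a library show how the members moved against each other, free of a factor common to the library. They are ratios of normalized counts, not of molecules. Over 3 against 3 libraries the exact permutation test (two-sided) cannot give p below 0.1, and over the 17 ratios computed the smallest Benjamini-Hochberg adjusted p was 0.17, so none could pass. Of the 17, 6 were added after values were seen: H2-Aa and H2-Eb1 to H2-Ab1, H2-DMa to H2-DMb1, H2-Ob to H2-Oa, Ctss to Cd74, and the classical chains to class I. H2-Aa was 21.1% ± 1.16 after saline and 25.6% ± 0.527 after bleomycin of the Cd74 value (log2 difference 0.28), and H2-Ab1 25.8% ± 1.57 after saline and 31.3% ± 0.883 after bleomycin (log2 difference 0.28). Neither ratio overlapped between groups (exact p = 0.1 for both), and each varied little within a group although Cd74 itself varied from 34616 to 60261 in saline libraries. H2-Aa relative to H2-Ab1 differed by less than its spread between libraries, 82.1% ± 7.67 after saline and 81.9% ± 3.94 after bleomycin (exact p = 1). H2-Eb1 relative to H2-Ab1 was 46.1, 39 and 50.1% after saline and 59.9, 74.3 and 68.7% after bleomycin, without overlap (log2 difference 0.59, exact p = 0.1).

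Relative to the invariant chain, H2-DMa was lower and H2-DMb1 overlapped between groups. H2-DMa was 18.7, 18.4 and 31.4% after saline and 11.8, 9.46 and 8.24% after bleomycin of Cd74, separated between groups (log2 difference -1.19, exact p = 0.1). H2-DMb1 was 7.76, 9.61 and 10.7% after saline and 8.38, 6.02 and 6.7% after bleomycin of Cd74, with overlap (log2 difference -0.41, exact p = 0.2). H2-DMa relative to H2-DMb1 went from 242% ± 50.4 to 140.3% ± 17.1 (log2 difference -0.77, exact p = 0.1). The modulator sum H2-Oa plus H2-Ob stayed small beside H2-DMa plus H2-DMb1, at 0.485, 0.489 and 0.371% after saline and 0.88, 2.65 and 2.28% after bleomycin (log2 difference 1.97, exact p = 0.1). H2-Ob relative to H2-Oa was 9.72, 35.3 and 13.3% after saline and 87.7, 260.0 and 229.7% after bleomycin (log2 difference 3.39, exact p = 0.1). Ciita relative to Cd74 overlapped between groups, at 0.447% ± 0.0801 after saline and 0.363% ± 0.132 after bleomycin (exact p = 0.6), and so did Ciita relative to Rfx5 (exact p = 0.2).

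**Figure D3:**
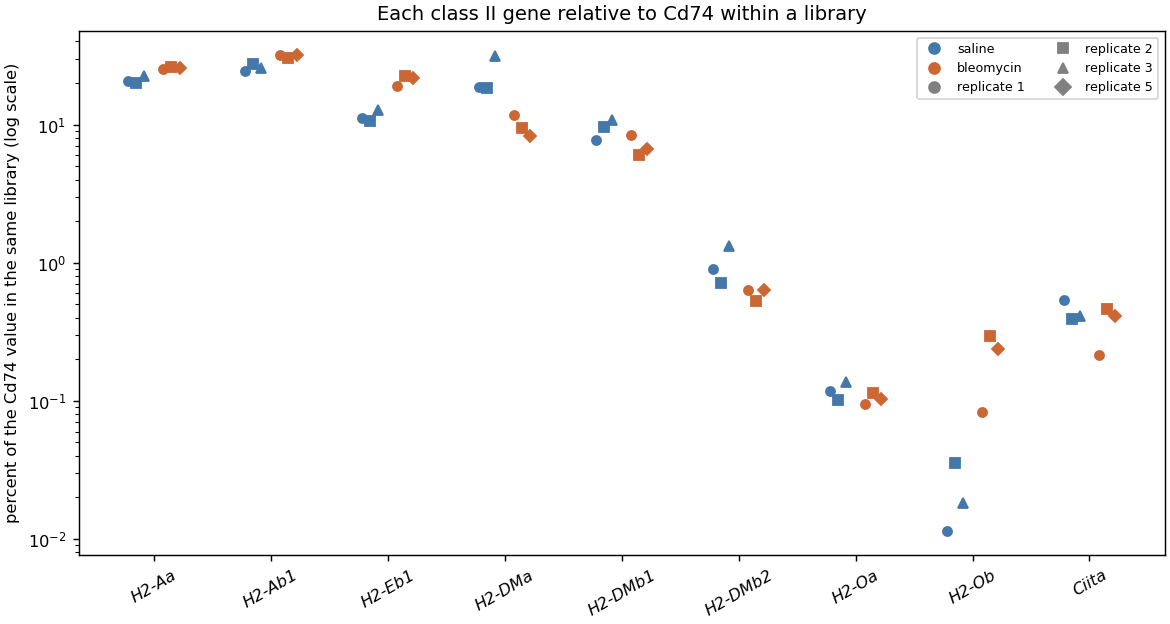
Each class II gene as a percent of the Cd74 value in the same library, on a log axis, saline in blue and bleomycin in orange, with the symbol shape for the replicate. H2-Aa, H2-Ab1, H2-Eb1 and H2-Ob lie higher in all bleomycin libraries, H2-DMa and H2-DMb2 lie lower, and H2-DMb1, H2-Oa and Ciita overlap.

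Of the 10 genes 8 lie together on chromosome 17, Cd74 on chromosome 18 and Ciita on chromosome 16. The stretch from the start of H2-Oa to the end of H2-Eb2 spans 249.1 kb and holds 14 tested genes, 8 of them members. All 5 genes from H2-Ob to H2-Eb2 (H2-Ob, H2-Ab1, H2-Aa, H2-Eb1 and H2-Eb2) rose. H2-Eb2 passed the filter only through its bleomycin libraries, so it could not have come out as lower and adds little to that count. H2-Ob reached 10 in saline replicate 2 alone of the saline libraries. It too needed its bleomycin libraries to pass, so its rise also adds little. Among all genes tested 9.76% rose and 3.9% fell. Whether the response depends on position was not tested. On the H2-Oa side, of 9 genes from H2-Oa to Tap2, 1 rose, 1 fell and 7 did not pass; Tap1, a peptide transporter of the class I pathway, was the one that rose (log2 0.52 ± 0.14, adjusted p = 0.0371), a call that needed saline replicates 1 and 3 and bleomycin replicates 2 and 5 (leaving any of these out gave adjusted p = 0.1 to 0.199). H2-Eb2, a second E beta locus that is not among the 10, had 4.9, 0 and 3.18 after saline and 24.3, 50.5 and 65.5 after bleomycin. It rose 15.2-fold from near 0 (log2 3.93 ± 0.73, adjusted p = 0.00876) and could not be tested without any 1 bleomycin library, because the filter needs 3 libraries. The size of its rise depended on the setting: it was log2 3.15 without saline replicate 2, 2.71 with a pseudocount of 5 and 2.87 with quantile normalization. Psmb8, an immunoproteasome subunit between Tap1 and Tap2, had log2 0.05 ± 0.17, adjusted p = 0.899, and Tap2 had log2 -0.07 ± 0.15, adjusted p = 0.825.

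**Figure D4:**
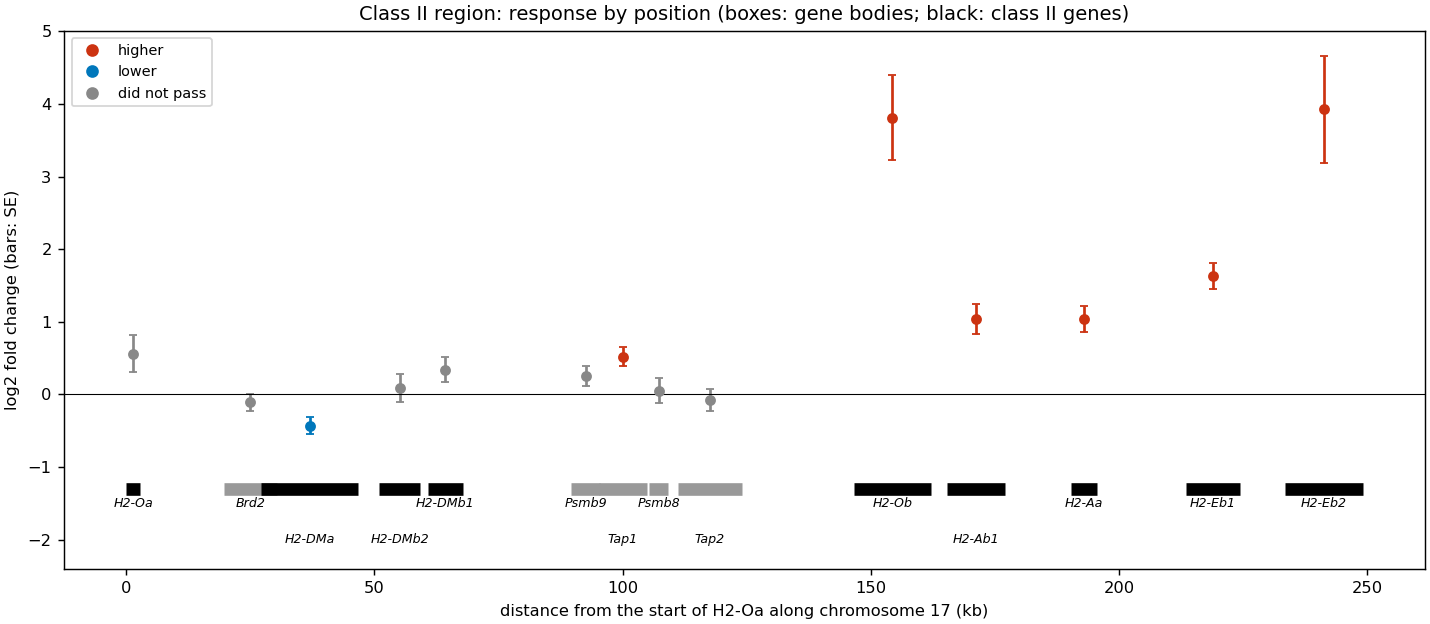
Log2 fold change (bleomycin against saline, bars SE) of the 14 tested genes against distance along chromosome 17 from the start of H2-Oa, with gene bodies as boxes below (black for class II genes). The 5 genes from H2-Ob onwards and Tap1 lie above 0 in red, H2-DMa lies below 0 in blue, and H2-Oa, H2-DMb1, H2-DMb2, Brd2, Psmb8, Psmb9 and Tap2 did not pass.

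Most proteases that process the invariant chain and antigen rose. Of 11 genes of this list 7 rose and 0 fell, where 9.76% and 3.9% of all genes tested did so. The median log2 difference of the list was 1.12 (that of Ctsd, which the bound for Ctse given below does not move). The 7 are 6 proteases and Cst3, cystatin C, an inhibitor of cathepsins (log2 0.96 ± 0.12, adjusted p = 0.00125). Ctss, cathepsin S, which makes the last cuts in the invariant chain, had 157653, 148774 and 158177 after saline and 373368, 343869 and 381201 after bleomycin and was 2.36-fold higher (log2 1.24 ± 0.15, adjusted p = 0.00118). Lgmn, the asparaginyl endopeptidase legumain, rose 3.2-fold (log2 1.68 ± 0.13, adjusted p = 0.000165), Ctsl 2.79-fold (log2 1.48 ± 0.14, adjusted p = 0.00035) and Ctsb 2.56-fold (log2 1.35 ± 0.16, adjusted p = 0.00109). Cathepsin E, Ctse, had 0 reads in saline libraries and was at least 33.7-fold higher when the saline group is set to 3 reads in all. Ifi30, a thiol reductase that unfolds antigens, had 22114 ± 3210.3 after saline and 22340.2 ± 2803 after bleomycin (log2 0.02 ± 0.15, adjusted p = 0.963), and Sppl2a, which cleaves the membrane remnant of the invariant chain, had 5526 ± 161 after saline and 6199 ± 868 after bleomycin (log2 0.16 ± 0.13, adjusted p = 0.512). Ctss, Ctse, Cst3, Ifi30 and Sppl2a were named after their values were seen.

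Among 4 genes of class II turnover, 1 rose and 1 fell, beside 9.76% and 3.9% of all genes tested. Cd83, which protects surface class II from ubiquitination, had 1772, 1752 and 2564 after saline and 3193, 5790.4 and 4889.9 after bleomycin and rose 2.25-fold (log2 1.17 ± 0.23, adjusted p = 0.0121). Without bleomycin replicate 2 or 5 it did not pass (adjusted p = 0.0545 and 0.0603). March1, the ubiquitin ligase that CD83 opposes, had 2809 ± 414 after saline and 3623 ± 813 after bleomycin (log2 0.35 ± 0.19, adjusted p = 0.295), and passed as higher without bleomycin replicate 1 (adjusted p = 0.0387). March8, its close relative, had log2 0.03 ± 0.12, adjusted p = 0.903. Ubqln1, a ubiquitin receptor, had 7137 ± 96.1 after saline and 5379 ± 165 after bleomycin and fell 1.33-fold (log2 -0.41 ± 0.09, adjusted p = 0.023), a call lost without any 1 library but bleomycin replicate 1 (adjusted p = 0.0514 to 0.156).

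Of 21 genes of class I presentation 10 rose and 0 fell (median log2 0.28), beside 9.76% and 3.9% of all genes tested. H2-K1, a classical heavy chain, was 1.87-fold higher (34019.7 ± 4672 after saline and 63384 ± 2499.6 after bleomycin, log2 0.91 ± 0.14, adjusted p = 0.00334), and the nonclassical H2-T23 1.53-fold (log2 0.61 ± 0.11, adjusted p = 0.00671). Nlrc5, which acts for class I genes as CIITA does for class II, had 326, 299.9 and 298 after saline and 566, 1117 and 1246 after bleomycin and rose 3-fold (log2 1.58 ± 0.27, adjusted p = 0.00614). The class I heavy chains are close relatives, so their separate levels are uncertain. The count was 6 without saline replicate 3, 4 without bleomycin replicate 2, 3 without bleomycin replicate 5 and 6 with no intensity trend. The summed classical class II chains relative to H2-K1 plus H2-D1 were 31.7% ± 9.79 after saline and 40.9% ± 3.98 after bleomycin, with overlap (log2 difference 0.41, exact p = 0.2).

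Of 9 tested genes of costimulation and checkpoint pathways, ligands apart from the receptors Cd40 and Havcr2, 3 rose and 0 fell (median log2 0.29). The shares over all genes tested were 9.76% and 3.9%. Tnfsf9, the ligand of 4-1BB, a costimulatory receptor of T cells, had 9.81, 26.1 and 56.2 after saline and 451, 752 and 675 after bleomycin and rose 23.9-fold (log2 4.58 ± 0.53, adjusted p = 0.00101), or by log2 3.96 without saline replicate 1. Cd40, which receives help from CD4+ T cells, had 11.8, 42.4 and 22.3 after saline and 92.5, 190.1 and 197 after bleomycin and rose 6.5-fold (log2 2.70 ± 0.48, adjusted p = 0.00712). Lgals9, galectin 9, rose 1.69-fold (log2 0.75 ± 0.13, adjusted p = 0.0069). Cd86, the main ligand of CD28, had 1642, 387 and 1971 after saline and 2777, 3347 and 3303 after bleomycin; the groups did not overlap, but saline replicate 2 lay far below the other saline libraries and the difference did not pass (log2 1.54 ± 0.52, adjusted p = 0.0966). Pdcd1lg2, a ligand of the inhibitory receptor PD-1, had 234, 217 and 221 after saline and 116, 149 and 159 after bleomycin (log2 -0.67 ± 0.19, adjusted p = 0.0502), and was called lower in 4 of 17 alternatives, DESeq2 among them. Without saline replicate 2 Cd86 passed (adjusted p = 0.0134) at a smaller difference, log2 0.80. Cd86 and Pdcd1lg2 were named after their values were seen. T cell markers other than Cd2, which was high in every library, summed to 47.1, 38 and 39.2 after saline and 288, 809 and 971 after bleomycin, and with Cd2 to 12855, 13176 and 15598 after saline and 10999, 8203 and 8014 after bleomycin. Of these 14 markers 6 were at 3 reads or fewer in each saline library, and the part of T cells in these values was not tested.

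**Figure D5:**
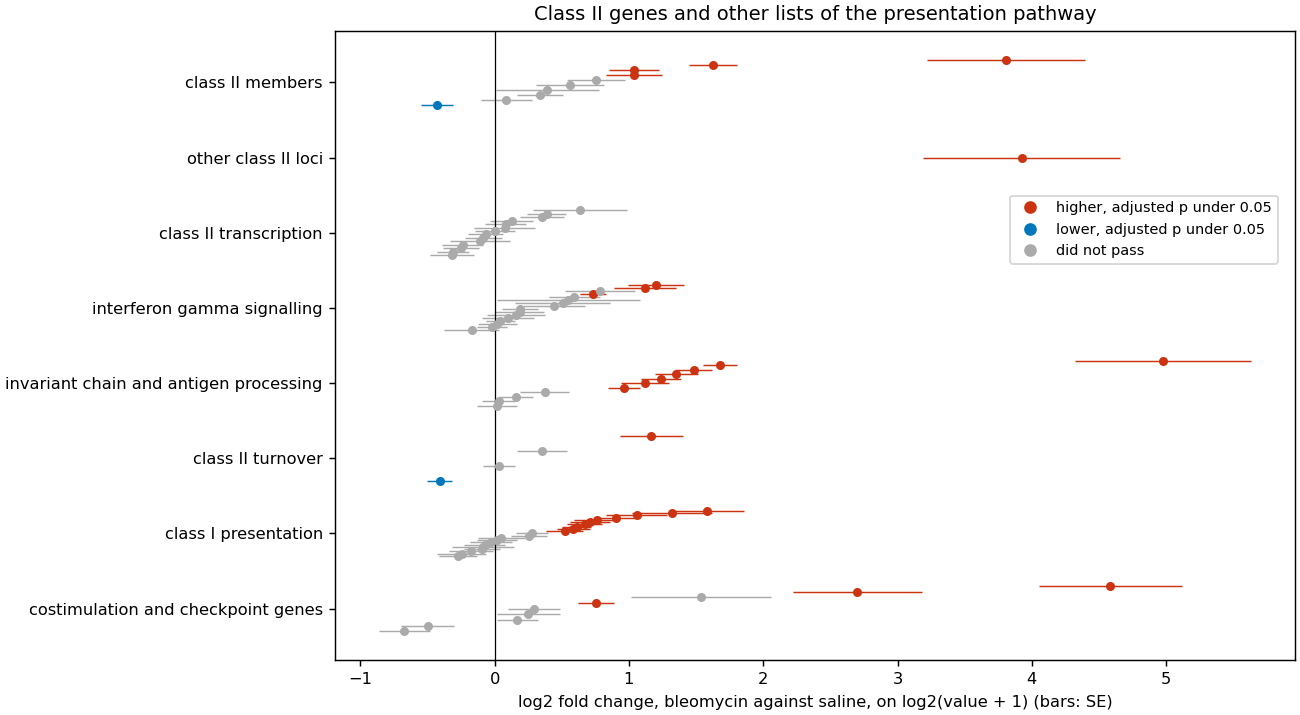
Log2 fold change, bleomycin against saline (bars SE), of each tested class II gene and of 7 further lists of the presentation pathway, 1 point per gene; red passed as higher, blue as lower and grey did not pass. Of the 11 processing genes 7 are red and 4 grey, and all 14 genes of the class II transcription list are grey.

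Genes with the most similar profile were sought among 10053 genes with a mean of at least 100, by the root mean square difference of centred log2(value + 1) over the 6 libraries. The 6 libraries fall into 2 groups, and these profiles share those libraries. For H2-Aa the nearest were Endod1 (0.08), its own beta partner H2-Ab1 (0.09), the nonclassical class I gene H2-T10 (0.12), Pisd-ps1 (0.13) and Wwc2 (0.13). For Cd74 they were the lactate transporter gene Slc16a1 (0.14), Pisd-ps1 (0.14), Rap2a (0.14), a gene without a symbol (0.14) and Frmd4b (0.14); neither H2-Aa nor H2-Ab1 was among them. For H2-DMb1 they were Mvk (0.09), AU022252 (0.10), Zfp12 (0.11), Zfp874b (0.13) and Nudt14 (0.13), and no other class II gene.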

How the data were processed

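RNA of alveolar macrophages was analysed in 3 saline and 3 bleomycin libraries. The submitters' processing notes list STAR 2.5.2b, HTSeq 0.6.0, bcl2fastq 2.18.0.12, DESeq2 and mm10; the sources used here do not say what each did, nor the annotation, strand setting or filters. As deposited, the signal is read counts divided by a size factor: 100% of values above 0 came out as whole reads within 0.05 of a read, and size factors recomputed from those reads matched. Symbols were found for 22873 of 22962 identifiers, and positions are on GRCm38.

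Tests covered the 13512 genes reaching 10 in 3 or more libraries, using limma 3.58.1 (R 4.3.3) on log2(value + 1) with an intensity trend, two-sided, with group as the only term. Genes under 10 in every saline library, such as H2-Eb2, Ctse and several markers, could pass this filter only through bleomycin libraries. They could not have come out as lower. Genes reaching 10 in fewer than 3 saline libraries, H2-Ob among them, also needed bleomycin libraries to pass, so the filter favoured rises among them. The 17 alternatives changed the pseudocount (0.5, 5), the filter (none, 50), the scaling (TMM, quantile), the variance model (no trend, robust), the tool on recovered reads (edgeR 4.0.16, 1821 genes called; DESeq2 1.42.0, 2313 called), added a replicate block, or left out 1 library. In a library 3 reads equal a value of 2.59 to 3.3, counting error only. The fit was tested on simulated counts.

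The members and lists were chosen with earlier results of these data known. Named by rule were all 10 members, the 3 genes of smallest p in each pathway list (every gene of lists up to 6), the most abundant markers where they help, and the 5 genes most like Cd74, H2-Aa and H2-DMb1. Chosen after their values were seen were Flt3, Xcr1, Batf3, Clec9a, Zbtb46, Sftpc, Pax5, Blk, Ebf1, Siglecf, Rfx5, Tap1, Tap2 and Psmb8. So were genes overlapping a member, markers named for needing bleomycin libraries to pass the filter, and those so described in the text.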

Additional observations from a re-analysis of the deposited data

How the results depend on the processing

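Over 17 alternatives, H2-Eb1 and H2-Ob passed as higher in all, H2-Aa in 16, H2-Ab1 in 15, and H2-DMa as lower in 4. Wherever a filter was applied, H2-Ob needed its bleomycin libraries to pass it. The count of class II genes higher was 4 and ran from 3 to 5 without a library; the count lower was 1 and ran from 0 to 1. It was 0 with the filter dropped or set to 50, with either scaling, with no trend, with robust variances and with edgeR. The cause was not tested, and adjusted p of H2-DMa was 0.0509 to 0.11 in these 7. Of the 76 tested genes in the pathway lists 25 rose and 1 fell; without a library the counts were 14 to 27 and 0 to 1, with 15 higher without bleomycin replicate 2 and 14 without replicate 5, where the filter also tests fewer genes. With a pseudocount of 0.5, quantile normalization or DESeq2, 2 fell. Over all genes 1319 rose and 527 fell, and without a library 502 to 1173 and 162 to 576; rises were 522 and 502 without bleomycin replicates 2 and 5, and falls 166 and 162 without these and 350, 327 and 320 without saline replicates 1, 2 and 3. Quantile normalization gave 1114 rises and 752 falls. Of the ratios, with quantile normalization the log2 difference was 0.41 for H2-Aa to Cd74, 0.37 for H2-Ab1 to Cd74, -0.48 for H2-Oa to Cd74 and 0.14 for Ctss to Cd74, against 0.28, 0.28, -0.18 and 0.49 as deposited. Without a library, H2-DMb2 ran from log2 -0.047 to 0.22, below 0 without saline replicate 2 or bleomycin replicate 5, and March8 from log2 -0.061 to 0.084, below 0 without saline replicate 2.

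Replicate numbers 1 and 2 occur in both groups, and nothing in the labels says that a number marks a shared animal or batch. Deviations from the group means correlated at -0.20 for replicates 1 and 0.02 for replicates 2. With the replicate number as a block, where numbers 3 and 5 drop out, 2 class II genes were higher and 0 lower, 0 pathway genes were lower, 194 of all genes were lower, H2-DMb2 was at log2 -0.051 and Ciita at log2 -0.12.

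Depth limits H2-Ob, H2-Oa and H2-Eb2 in saline libraries, where counts were few. Scaling moved the median of all genes by 0.02 (TMM) and -0.05 (quantile) in log2, and no class II gene changed direction under either.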
